A study of Mus musculus with 6 samples.

Results

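Cassette exons are exons that a cell can keep or skip, and the 2141 described here, in 1664 genes, have lengths that would shift the reading frame if they lay alone in coding sequence. They were chosen from 107748 exon events of mouse hearts by length, 28 to 300 nt and not divisible by 3, and by inclusion level. The inclusion level gives, in percent, how much of the RNA spliced at an exon keeps it, and its mean over both groups had to be at least 10% and under 90%. Because the members were selected on these levels, the differences in inclusion between groups are given as a description with no test. Control hearts carried 2 floxed copies of the splicing factor gene Srsf3 (Srsf3Fl/Fl, 3 hearts). The cKO hearts carried the same floxed copies and βMHC-Cre (Srsf3Fl/Fl-βMHC-Cre, 3 hearts), which expresses Cre recombinase from the Myh7 promoter in cardiomyocytes from fetal life onward, so that other cell types of the heart keep the gene. No treatment was given, and polyadenylated RNA of whole hearts was sequenced. The authors' tables give 1 inclusion level a group for each exon, so its spread between hearts is unknown and no test of inclusion across hearts was made. For each gene they give 1 fold change with its DESeq2 standard error and adjusted p, and no value per heart. The depth of each sample is unknown.

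An exon whose length is not a multiple of 3 shifts the reading frame when it is skipped or added, and the shifted frame usually meets a stop codon soon after. A stop codon well upstream of the last exon junction marks an mRNA for nonsense-mediated decay, which removes it after a first round of translation. Many splicing factors limit their own amount in this way, through "poison" exons that bring such a stop into their mRNA. SRSF3 is a small SR protein that binds exons through 1 RNA recognition domain and is known, among other roles, for promoting the inclusion of exons it binds.

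In the authors' deposited table, total Srsf3 mRNA had a log2 fold change of 0.02 (SE 0.07, DESeq2 adjusted p = 0.935), which in whole hearts does not check the deletion in cardiomyocytes. Cardiomyocyte markers had a median log2 fold change of -0.37 in the authors' deposited table, and 3 of 6 were lower in cKO. Of 12 myeloid markers, 6 were higher, with a median of 0.61, in the authors' deposited table, and no marker gene hosted a member. Fewer cells of a type and less RNA per cell cannot be told apart in such bulk samples, and the part of these shifts in the results below was not tested. Near-constitutive exons lay nearer to full inclusion in cKO, by a median over genes of 0.39 on the log2 scale. That distance serves below as a stand-in for depth, and reads were not counted.

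The sequences below are from GENCODE M21 (GRCm38) transcripts, and the coordinates are those of the authors' table of events (mm9). The first 5 are called losses picked because they hold CATC, in capitals, a tetramer that the SRSF3 recognition domain is known to bind, and all are longer than the median member:
Zfr 283 nt, chr15:12066151-12066433, plus strand: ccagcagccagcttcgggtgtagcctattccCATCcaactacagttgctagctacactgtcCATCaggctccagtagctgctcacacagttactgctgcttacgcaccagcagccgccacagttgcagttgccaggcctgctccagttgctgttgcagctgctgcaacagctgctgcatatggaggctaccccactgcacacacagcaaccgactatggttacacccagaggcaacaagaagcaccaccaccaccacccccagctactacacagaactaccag
Zfr 248 nt, chr15:12075904-12076151, plus strand: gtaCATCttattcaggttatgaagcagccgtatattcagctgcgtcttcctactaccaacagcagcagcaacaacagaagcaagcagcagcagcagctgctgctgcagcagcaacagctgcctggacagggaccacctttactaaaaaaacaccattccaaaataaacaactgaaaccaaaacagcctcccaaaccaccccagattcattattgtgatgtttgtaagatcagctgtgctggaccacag
Zfr 292 nt, chr15:12079928-12080219, plus strand: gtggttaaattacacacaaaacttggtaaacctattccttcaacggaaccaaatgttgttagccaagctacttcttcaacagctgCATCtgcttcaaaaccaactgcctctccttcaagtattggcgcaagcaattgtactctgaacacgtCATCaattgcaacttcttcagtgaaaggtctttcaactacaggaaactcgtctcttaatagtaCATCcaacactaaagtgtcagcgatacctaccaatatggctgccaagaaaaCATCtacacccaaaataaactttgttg
Tmem116 139 nt, chr5:121941085-121941223, plus strand: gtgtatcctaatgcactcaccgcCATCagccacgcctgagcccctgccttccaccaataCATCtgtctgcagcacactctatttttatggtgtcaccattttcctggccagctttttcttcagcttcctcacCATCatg
Nfat5 154 nt, chr8:109893298-109893451, plus strand: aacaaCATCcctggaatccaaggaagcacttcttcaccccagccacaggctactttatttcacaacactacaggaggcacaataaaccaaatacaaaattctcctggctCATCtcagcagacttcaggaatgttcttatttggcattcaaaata
The next 4 are the member with the largest rise, a kinase exon that rose, and 2 exons that fell. They hold no CATC, so they have no capitals:
Synrg 41 nt, chr11:83785054-83785094, plus strand: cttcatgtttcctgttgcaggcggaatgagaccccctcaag
Clk4 91 nt, chr11:51086580-51086670, plus strand: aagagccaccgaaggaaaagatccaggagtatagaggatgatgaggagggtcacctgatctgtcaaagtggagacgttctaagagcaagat
Mdm4 68 nt, chr1:134901231-134901298, minus strand: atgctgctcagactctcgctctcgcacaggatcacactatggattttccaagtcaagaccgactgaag
Mtap4 248 nt, chr9:109971197-109971444, plus strand: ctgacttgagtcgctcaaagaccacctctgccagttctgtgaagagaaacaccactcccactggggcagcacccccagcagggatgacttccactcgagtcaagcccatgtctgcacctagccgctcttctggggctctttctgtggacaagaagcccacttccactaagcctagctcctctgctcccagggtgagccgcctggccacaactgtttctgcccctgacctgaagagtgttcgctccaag

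For 3 of these genes the reading after the exon is skipped is shown from the codons before the new junction to the first stop codon in the shifted frame, which is in capitals. These show how soon the frame closes:
Zfr without its 248-nt exon: gttacttattctgacttaTAA
Mdm4 without its 68-nt exon: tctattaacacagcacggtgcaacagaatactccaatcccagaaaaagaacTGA
Clk4 without its 91-nt exon: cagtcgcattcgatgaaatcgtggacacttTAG
The stop ended 8 nt past the new junction in Zfr, 41 nt past it in Mdm4 and 21 nt past it in Clk4.

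Most members were included in the larger share of transcripts. The median of the mean inclusion level was 71.4%, with 811 members at or above 80%, 975 from 20% to 80% and 355 under 20%. Their median length was 107 nt, 1618 were shorter than 150 nt, and lengths of 1 or 2 nt above a multiple of 3 were similarly common (1100 and 1041). A single member was found in 1322 genes, 261 genes held 2, 57 held 3 and 24 held 4 or more. Of 1768 members that could be matched to an annotated exon, 1071 lay in coding sequence, 262 in a 5′ UTR, 186 across the start or end of the coding sequence, 240 in noncoding or decay transcripts alone, 3 in a 3′ UTR and 6 were first or last exons. The other 373 were not matched.

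The inclusion level was called different between groups where the authors' minimum change, the change exceeded with probability 0.95, was at least 10 points. By this rule 34 members rose in cKO hearts and 71 fell, together 105 (4.90%) in 100 genes. Of all 107748 exon events, 0.294% were called in either direction, 0.077% higher and 0.217% lower in cKO. Of all exon events, 95.5% had a mean inclusion under 10% or at least 90%, and 0.0282% of these were called, against 5.99% of the 4808 in between. The members were selected on inclusion, so nothing is read from the gap to the background. Cassette exons of the same length and inclusion range that preserve the frame stood at 127 called of 2213 (5.74%), 44 higher and 83 lower. Losses made up 67.6% of the called members, 65.4% of the called frame-preserving exons and 73.8% of all called exons.

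**Figure D1:**
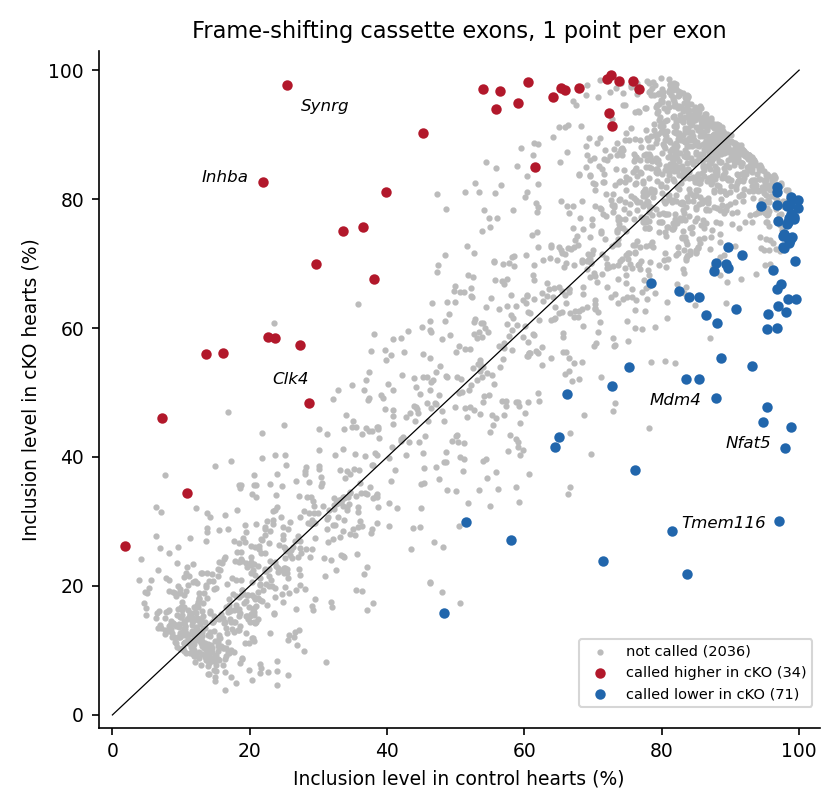
Inclusion level (%) of each of the 2141 exons in control hearts (x axis) and cKO hearts (y axis), 1 point per exon, with the 34 called higher in red, the 71 called lower in blue and the line of equality. Many called losses start near full inclusion in control, and many called gains end near full inclusion in cKO; the empty corners reflect the limits of 10% and 90% on the mean.

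The called losses mostly started from near-constitutive use. Their median inclusion was 96.1% in control and 66.0% in cKO, and 44 of 71 were at or above 90% in control. The called gains went from a median of 49.6% to 90.7%, and 18 of 34 were at or above 90% in cKO. Only 27 of the losses and 14 of the gains had both groups between 10% and 90%, so the rest were members through the difference itself. Among all members, 723 (33.8%) differed by at least 10 points without regard to the call, and the median absolute difference was 6.57 points. That difference was larger where the host was less abundant, at 8.68 points among 687 members with the least abundant hosts by mean normalized count, 6.39 among 687 in the middle and 5.23 among 687 with the most abundant, while 5.39%, 4.95% and 4.08% of members were called.

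The largest rise was in Synrg, whose protein, gamma-synergin, binds the AP-1 clathrin adaptor. Its 41-nt exon was included at 25.5% in control and 97.6% in cKO, a minimum change of 50 points. An 82-nt 5′ UTR exon of Inhba, which encodes the beta A subunit of activin, rose from 21.9% to 82.7%. A 100-nt coding exon of Zbtb37, a BTB zinc finger gene, rose from 45.2% to 90.2%. These 3 started as minority or near-even exons and became the main form. A 94-nt exon of Kcp, a secreted modulator of BMP signalling, rose from 54.0% to 97.0%. The other members among the 10 largest rises lay in 1700029G01Rik (now Sh3d21), the zinc finger gene Zkscan1, A830093I24Rik (now Fam228b), the homeobox gene Pbx4, the ubiquitin ligase gene Ttc3 and Ankrd45. Their rises were 40.1 to 42.3 points.

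The largest loss was in Tmem116, a membrane protein gene, whose 139-nt exon printed above fell from 97.1% to 30.0%. The 154-nt exon of Nfat5, the transcription factor of the osmotic stress response, fell from 98.0% to 41.3%. A 235-nt exon of Prkag3, a regulatory gamma subunit of AMPK, fell from 98.8% to 44.6%. Each of these exons was all but constitutive in control hearts. Map4, listed in the table as Mtap4, encodes a microtubule-associated protein, and its 248-nt exon fell from 95.3% to 47.7% with a minimum change of 44 points. The 68-nt exon of Mdm4, the relative of Mdm2 that restrains p53, fell from 87.8% to 49.1%. In human cells, skipping of the corresponding exon is known to give a short, unstable form of the protein. Also among the 10 largest losses were Gm16008, the semaphorin gene Sema3b, the nucleotide-sugar transporter gene Slc35d2, Zmym1 and the clathrin adaptor gene Ap1g2, which fell by 39.0 to 61.9 points.

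**Figure D2:**
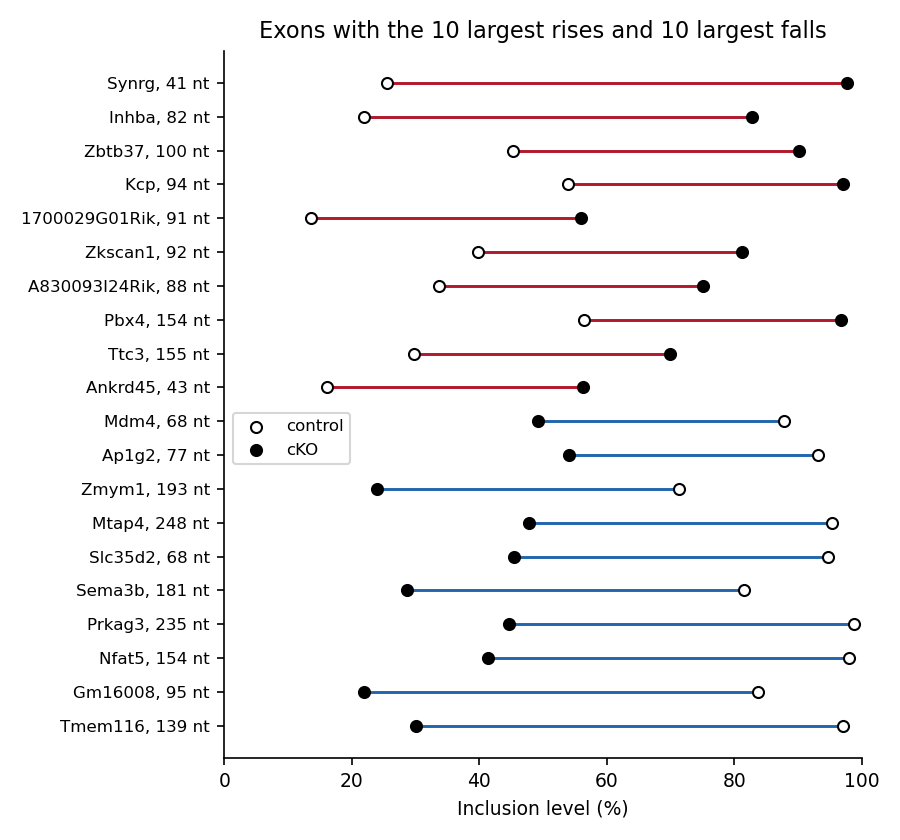
Inclusion level (%) in control (open points) and cKO (filled points) of the called members with the 10 largest rises (red) and 10 largest falls (blue), with gene symbol and exon length. The falls of Tmem116, Nfat5, Prkag3, Mtap4 and Slc35d2 start above 94% in control, whereas the rise of Synrg crosses from 25.5% to 97.6%.

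In 3 genes more than 1 member was called, BC026585, Tmem33 and Zfr, all of them lower in cKO. Zfr encodes a zinc finger RNA-binding protein that is itself known to act in splicing. Its 283-nt exon fell from 96.1% to 68.9%, its 248-nt exon from 98.1% to 62.6% and its 292-nt exon from 99.3% to 70.4%. The 3 lay in 1 stretch of the gene, and exons between them that are no members moved the same way. A 145-nt exon between them was at 99.7% in control and 81.7% in cKO, with a mean just above the window, and a frame-preserving 192-nt exon was at 93.9% and 64.9%. Both were called lower, whereas a 219-nt exon between them was at 97.4% and 92.3% and was not called. The exons downstream of this stretch differed by at most 3.33 points. In Tmem33, a membrane protein gene of the endoplasmic reticulum, neighbouring exons of 188, 68 and 134 nt fell to 79.1%, 78.9% and 81.8% in cKO from 98.2%, 98.3% and 96.8%. The adjacent 95-nt exon, with a mean just above the window, was also called lower, from 98.2% to 83.0%.

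**Figure D3:**
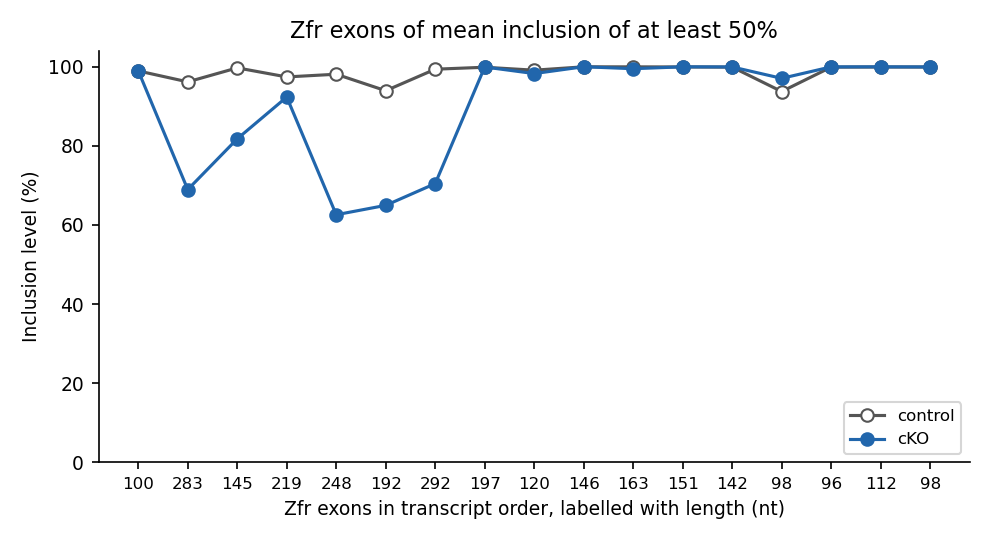
Inclusion level (%) of the Zfr exons with a mean of at least 50%, in transcript order from left to right and labelled with their length, in control (open) and cKO (filled). The cKO line dips at the 283-, 145-, 248-, 192- and 292-nt exons and follows the control line over the exons after them.

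Skipping of 2 neighbouring exons together can restore a frame that either alone would break. Of 97 called members with a neighbouring exon of at least 50% mean inclusion in the table, 20 had 1 that moved the same way by a minimum change of 5 points or more. In 6 of these 20 the 2 lengths summed to a multiple of 3, and the BC026585 pair counts once for each of its called exons. Only pairs were checked, so longer runs of exons that moved together, as in Zfr and Tmem33, were not judged for frame. One was Atg4c, which encodes a protease that processes ATG8 proteins in autophagy. Its 79-nt exon rose from 73.7% to 98.3%, and the adjacent 77-nt exon, also a member, stood at 76.3% and 97.9% with a minimum change of 9 points. In Larp1b, which encodes a La-related protein, the 161-nt exon fell from 97.7% to 72.6% and a 145-nt neighbour was at 97.5% and 75.2%. The inclusion level of an exon does not say which exons are joined in the same molecule, so the frame of the joint product was not measured.

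The tetramer CATC was searched in the sense strand of the 1768 matched members, and its reverse complement GATG in the same letters for comparison. CATC was present in 37.7% of them, in 39 of 56 called losses (69.6%) and in 9 of 30 called gains (30.0%). The called losses were longer, with a median of 154 nt against 107 nt for all matched members, which raises the chance that an exon holds any tetramer. Per 100 nt of exon, CATC occurred 0.884 times in called losses, 0.424 times in called gains and 0.438 times in members that were not called. The reverse complement went the other way, at 0.271 per 100 nt in called losses, 0.555 in called gains and 0.531 in members not called. By length, CATC was held by 6 of 16 called losses of 28 to 99 nt, 9 of 11 of 100 to 149 nt, 13 of 16 of 150 to 199 nt and 11 of 13 of 200 to 300 nt. The shares in members not called were 24.6%, 38.0%, 54.0% and 66.4% in the same order. Called gains held it in 3 of 18, 1 of 6, 4 of 5 and 1 of 1, so that at 150 to 199 nt gains and losses were close. The frame-preserving exons had nearly the same densities, 0.802 per 100 nt in 74 called losses, 0.336 in 40 called gains and 0.425 in the others. Members and frame-preserving exons were not tested against each other. A match is a description of the letters in an exon and shows neither binding nor a cause, and no test was made of it.

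**Figure D4:**
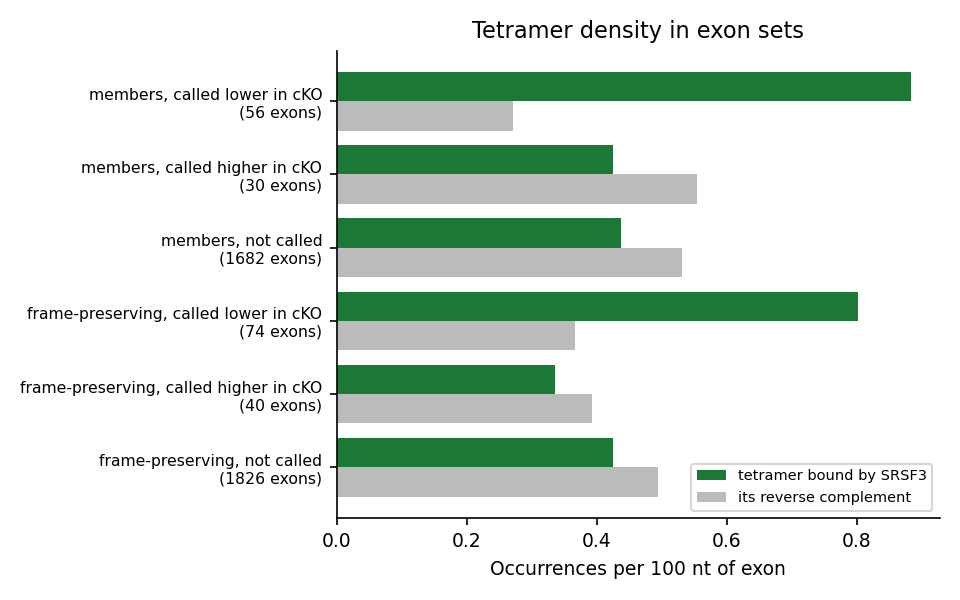
Occurrences per 100 nt of exon of the tetramer described in the text (green) and of its reverse complement (grey), pooled over the exons of each set, for members and for frame-preserving cassette exons. The green bar is longest for exons called lower in cKO in both kinds, 0.884 and 0.802, and the grey bar is shortest there.

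What a shifted frame would do was predicted from the annotation. A form was predicted to decay where its first stop codon lay at least 50 nt upstream of the last exon junction. For 574 members, skipping was predicted to lead to decay, and for 159 inclusion was. For 776 both forms occur in annotated coding transcripts, for 78 no decay was predicted, 181 lay in no complete coding sequence and 373 were not matched. The members whose inclusion would lead to decay were mostly skipped, with a median mean inclusion of 21.4%, and those whose skipping would lead to decay were mostly kept, with a median of 84.5%. These levels were used to select the members, the class follows the annotated form, and decaying RNA is undercounted, so nothing is read from them. Where skipping was predicted to lead to decay, the new stop codon ended at a median of 35 nt past the junction.

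Of the 574 members whose skipping was predicted to lead to decay, 32 (5.57%) were called, 9 higher and 23 lower, beside 4.90% of all members. Of the 159 whose inclusion was, 3 (1.89%) were called: Lrrc27 rose from 1.76% to 26.2%, the zinc finger gene Zfp142 fell from 97.7% to 74.3%, and Luc7l, which encodes a relative of a U1 snRNP protein, fell from 85.3% to 64.8%. Both Zfp142 and Luc7l were mainly included in control hearts, which is unlike most exons of that class. Among members with no decay predicted, 14 of 78 (17.9%) were called, 12 of them lower. In the class with both forms in coding transcripts, 27 of 776 (3.48%) were called, 14 higher and 13 lower.

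Total mRNA of the host genes was set beside these forms. Of 1605 host genes in the authors' deposited table with an adjusted p, 121 (7.54%) had an adjusted p under 0.05, with 60 higher and 61 lower in cKO. Over all 15929 genes of the authors' deposited table, 7.09% passed, 3.78% higher and 3.31% lower, so the members' hosts stood near the background. Their median log2 fold change was 0.01 in the authors' deposited table, against -0.004 for all genes. The hosts of the called exons were few, and 14 of 95 (14.7%) passed in the authors' deposited table. Where inclusion fell, 9 of 61 hosts were higher and 1 was lower, with a median of 0.09, in the authors' deposited table. Where inclusion rose, 4 of 34 hosts were higher and none lower, with a median of 0.02, in the authors' deposited table. A difference between these groups of hosts was not tested.

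Where the form predicted to decay gained in share, 1 of 21 hosts passed lower. That form was called higher in cKO for 24 exons in 21 hosts, of which 3 passed higher and 1 lower, with a median log2 fold change of 0.09 in the authors' deposited table. It was called lower for 11 exons in 11 hosts, of which 1 passed higher and none lower, with a median of 0.02 in the authors' deposited table. Across all 733 exons with a predicted form, Spearman's correlation between the change of that form and the fold change of the host in the authors' deposited table was -0.04, and exons of the same gene share their host. Among these exons, called or not, that form was higher in cKO in 291 hosts, of which 9 passed higher and 17 lower. It was lower in 357 hosts, of which 11 passed higher and 4 lower, and a gene with several exons can be in both. Of all genes, 3.78% passed higher and 3.31% lower, and the split was not tested. A form that decays quickly is counted only while it lasts, so inclusion levels of decayed forms are those of the RNA that remained.

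**Figure D5:**
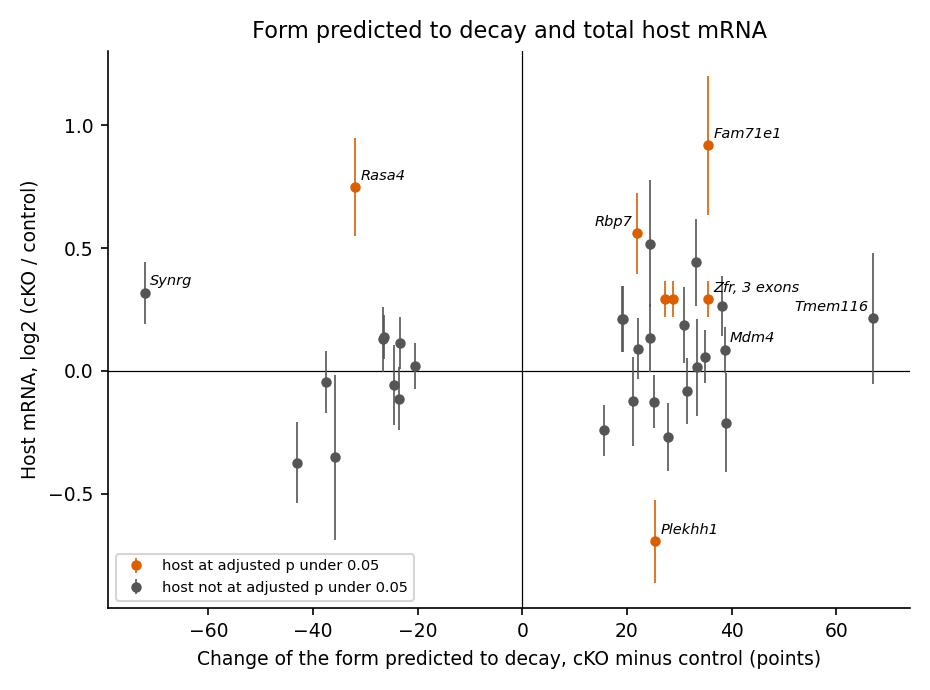
Change of the form predicted to decay (cKO minus control, in points of inclusion or skipping; x axis) and log2 fold change of the host mRNA with its standard error (y axis) for the 35 called exons with such a prediction, in orange where the host passed at an adjusted p under 0.05. To the right of 0, where that form gained, Fam71e1, Rbp7 and Zfr lie above 0 and Plekhh1 below.

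Plekhh1, which encodes a pleckstrin homology domain protein, was the host that passed lower. Its 128-nt exon fell from 98.6% to 73.1%, skipping closes the frame 116 nt past the junction, and in the authors' deposited table the log2 fold change of the host was -0.69 (SE 0.17, DESeq2 adjusted p = 0.0017). In the authors' deposited table Zfr mRNA was higher by 0.29 (SE 0.07, DESeq2 adjusted p = 0.00236), and each of its 3 called exons was predicted to lead to decay when skipped alone. In the authors' deposited table Fam71e1, whose 119-nt exon fell from 95.3% to 59.8%, was higher by 0.92 (SE 0.28, DESeq2 adjusted p = 0.0235). Rbp7, a cellular retinol-binding protein gene, was higher by 0.56 (SE 0.17) in the authors' deposited table as its 179-nt exon fell from 99.3% to 77.3%. Of the 4 hosts in this direction that passed, 3 were higher, a count that includes Zfr. In Zfr the neighbouring 248-, 192- and 292-nt exons fell together, and the fate of a form without several of them was not predicted. The authors' deposited table put Mdm4 mRNA at 0.09 (SE 0.09, DESeq2 adjusted p = 0.701), which leaves a change of that size within its error.

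The other hosts that passed beside a called exon were all higher in cKO. The authors' deposited table had Zbtb37 higher by 0.84 in log2 terms (SE 0.14, DESeq2 adjusted p = 2.18e-07) and Prkag3 by 0.63 (SE 0.13, DESeq2 adjusted p = 0.000114). Rasa4, a Ras GTPase-activating protein gene, was higher by 0.75 (SE 0.20) in the authors' deposited table, with a 113-nt exon that rose from 65.3% to 97.2%, so that the form predicted to decay lost. The kinase gene Hipk2, Nadk of NADP synthesis, Supt6h of transcription elongation, Lrrc28 and Adamtsl5 hosted falling exons, and Zbtb43 and the protease gene Senp8 hosted rising ones. Their log2 fold changes were 0.32 to 0.71 in the authors' deposited table.

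The gene lists below are partial and small, and their counts are to be read beside the 4.90% of all members that were called, so that a count of 0 in 9 to 16 members says nothing particular about a list. A list of 30 SR proteins and their relatives held 16 members in 12 genes, of which 2 were called. Clk4 encodes a kinase that phosphorylates SR proteins, and its 91-nt exon printed above rose from 28.6% to 48.4%. The other was the Luc7l exon already described. A 91-nt exon of the related kinase gene Clk1 stood at 58.4% and 69.6% with a minimum change of 4 points and was not called. Clk4 members of 67 and 59 nt were at 48.2% and 39.3%, and at 29.4% and 29.8%. The 85-nt exon of Clk2 was at 87.8% and 83.1%, and the 97-nt exon of Clk3 at 90.6% and 86.8%. Of the SR protein genes proper, Srsf4 had a 184-nt exon in noncoding or decay transcripts alone, at 21.7% and 27.4%. Members in Son, Srrm1, Srrm2, Srpk2, Luc7l3 and Acin1 differed by -4.18 to 2.76 points, cKO minus control. In the authors' deposited table none of the 30 genes of this list had a DESeq2 adjusted p under 0.05, and 6 had an unadjusted p under 0.05.

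A list of 41 hnRNP and PTB genes held 10 members in 10 genes, and 1 was called. It was a 73-nt exon of Hnrnpa2b1, an abundant RNA-binding protein, which fell from 51.4% to 29.9% while the authors' deposited table had the host at -0.01 with an SE of 0.06. The 34-nt exons of Ptbp2 and Ptbp3 (listed as Rod1), polypyrimidine tract-binding proteins, were at 78.0% and 69.0%, and at 22.2% and 27.9%. Exons of Hnrnph3, Tial1, Pcbp3, Hnrnpr, Hnrnpll and Khdrbs1 differed by -6.88 to 7.54 points and were not called. Of the 41 genes listed, 1 was higher and 3 lower in the authors' deposited table, beside 3.78% and 3.31% of all genes.

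A list of 22 muscle splicing regulators held 16 members in 9 genes, 0 of them called. The 95-nt exon of Mbnl1, a muscleblind protein that binds CUG repeats, was at 78.2% in control and 68.3% in cKO, and the 95-nt exons of Mbnl2 and Mbnl3 were at 45.4% and 36.0% and at 88.9% and 83.7%. The 3 differences were -5.22 to -9.92 points, with minimum changes of 0 to 3 points. A 247-nt exon of Mbnl3 was at 47.3% and 80.9%, with a minimum change of 4 points. Rbfox1 and Rbfox2 bind UGCAUG motifs, and their 43-nt exons were at 75.6% and 69.3% and at 69.1% and 63.2%. Their 40-nt exons were at 12.3% and 17.0% and at 20.8% and 21.7%, and a 53-nt exon of Rbfox1 was at 41.5% and 32.0%. A 130-nt exon of Rbpms, an RNA-binding regulator of muscle splicing, was at 13.0% and 22.1%, a minimum change of 5 points. Of the 19 genes of this list that were tested in the authors' deposited table, 1 passed higher, Nova1, and 4 lower. Of all genes, 3.78% passed higher and 3.31% lower. The 4 were Rbfox1, Rbpms, Rbpms2 and Rbm24, with log2 fold changes of -0.56, -0.22, -0.29 and -0.29 in the authors' deposited table.

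A list of 30 nonsense-mediated decay factors held 9 members and a list of 60 spliceosome genes 11, with 0 called in each. The decay factors included a 67-nt exon of Dcp1a, an activator of decapping, at 80.2% and 96.7% with a minimum change of 5 points. Of the 30 decay factors, 2 passed in the authors' deposited table, near the 7.09% of all genes that passed. They were Smg5, higher by 0.31 (SE 0.10, DESeq2 adjusted p = 0.0369), and Etf1, by 0.27 (SE 0.09, DESeq2 adjusted p = 0.0467). A list of 19 noncoding or stress transcripts known as decay targets held no member. Only 9 were tested, all of protein-coding genes, so no noncoding one was. Of these 9, Cdkn1a, Chac1 and Tbl2 were higher in the authors' deposited table, beside 3.78% of all genes. The median log2 fold change of the 9 was 0.08 in the authors' deposited table. The 11 members in spliceosome genes differed by -14.4 to 12.2 points, with the largest minimum change, 7 points, in Dhx9.

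A list of 143 mitochondrial genes held 16 members in 12 genes and a list of 83 sarcomere, Z-disc and costamere genes 12 in 10, with 0 called in each. Some mitochondrial genes outside that list, named after their values were seen, held called members: a 116-nt exon of Isca2, of iron-sulfur cluster assembly, fell from 87.6% to 68.9%, a 65-nt exon of Prodh, proline dehydrogenase, from 97.7% to 72.5%, and a 248-nt exon of Gtpbp3, which modifies mitochondrial tRNA, from 99.5% to 64.5%. Slc25a3 encodes the mitochondrial phosphate carrier, whose 2 forms come from mutually exclusive exons, and the pair is shown because both exons are members and can be compared letter by letter:
Slc25a3 125 nt, chr10:90584952-90585076, minus strand: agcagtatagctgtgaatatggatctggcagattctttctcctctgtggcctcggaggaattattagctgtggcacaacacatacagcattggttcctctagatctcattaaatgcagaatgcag
Slc25a3 122 nt, chr10:90584667-90584788, minus strand: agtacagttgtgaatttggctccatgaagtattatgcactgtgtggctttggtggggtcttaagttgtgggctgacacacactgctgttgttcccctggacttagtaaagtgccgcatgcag
The 125-nt exon was at 89.6% in control and 78.9% in cKO, and the 122-nt exon at 9.18% and 18.9%, with minimum changes of 9 and 8 points. A 202-nt exon of Mrpl55, a mitochondrial ribosomal protein gene, was at 93.6% and 82.1%, with a minimum change of 9 points. In Tpm2, a tropomyosin gene, a pair of 76-nt exons was at 58.8% and 48.5% and at 55.1% and 64.6%. In Actn4, a nonmuscle alpha-actinin gene, a pair of 86-nt exons was at 68.5% and 60.3% and at 34.8% and 44.7%. The minimum changes of these sarcomere-list exons were 4 to 8 points.

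In 39 neighbouring pairs, found after the values were seen, the 2 inclusion levels summed to within 10 points of 100% in both groups, and in 29 pairs the lengths were equal modulo 3. The 2 exons differed in opposite directions in 30 of the 39 pairs. Choosing pairs by a sum near 100% in both groups favours opposite differences, so nothing is read from that count. Swapping exons of equal length modulo 3 would keep the frame, so the rule of length alone can include exons that do not break it. Whether the exons of a pair replace each other in the same molecule was not measured. One pair, in the zinc finger gene Zbtb43, had a called member. Pkm, listed as Pkm2, encodes pyruvate kinase, whose M1 and M2 forms also come from mutually exclusive exons. Its 167-nt member, the upstream of the pair, fell from 78.4% to 67.0%, with a minimum change of 10 points, and a downstream event of 475 nt outside the length window was at 15.7% and 24.2%.

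The remaining lists are partial too, and some called members of related genes outside them are named beside them, chosen after their values were seen. A list of 102 chromatin and DNA repair genes held 40 members, of which Mdm4 was called. A list of 80 membrane traffic genes held 17, of which Map4 and a 124-nt exon of Eps15l1, an endocytic scaffold gene, which fell from 72.8% to 51.1%, were called, and the Synrg and Ap1g2 exons above lay outside it. A list of 73 autophagy, mTOR and AMPK genes held 13, of which the 79-nt exon of Atg4c was called, and a 101-nt exon of Mtor was at 97.3% and 82.2% with a minimum change of 9 points; the called Prkag3 exon lay outside it. A list of 72 ion channel and calcium handling genes held 8, 0 of them called, and the largest minimum change was 9 points for a 176-nt exon of Abcc9, a subunit of ATP-sensitive potassium channels, at 59.3% and 45.3%. Outside it, a 214-nt exon of the chloride channel gene Clcn2 fell from 96.8% to 66.0%, and a 50-nt exon of the endolysosomal cation channel gene Tpcn2 from 95.5% to 62.2%. Genes whose symbols mark zinc finger families, counted after the values were seen, made up 13 of the 100 genes with a called member, 81 of the 1664 member genes (4.87%) and 4 of 118 genes with a called frame-preserving exon.

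The exons nearest to the bounds of the window are given to show where it lies. The 5 members just above the lower bound had means of 10.03% to 10.08%, and the 5 exons just below it 9.89% to 9.96%. The 5 members just under the upper bound had means of 89.95% to 89.98%, and the 5 exons at or just above it reached 90.03%. None of these 20 was called.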

How the data were processed

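Groups were taken from the sample descriptions (3 control and 3 cKO hearts), and nothing in the labels says more of how the hearts relate. Stranded libraries were made from polyadenylated RNA after Trizol extraction, per the labels' protocols. Builds GRCm38, mm9 and mm10 appear in the submitters' processing notes, with DESeq2 1.24.0, kallisto 0.46.0, Trimmomatic 0.38 and FastQC 0.10.1. The version of vast-tools is not given in the sources used here. Inclusion levels were deposited as a fraction per group, per the file headers, with the signed difference and the minimum change at probability 0.95 as a score; they are printed as percentages and points. The gene table deposited by the authors gives each gene a log2 fold change with standard error and Wald score, a p-value and adjusted p-value, and a signal, its normalized mean across libraries. It does not name its reference group. Positive was taken as higher in cKO from a stand-in for depth. It is how much nearer to full inclusion the exons of a gene lay in cKO, for exons within 3 points of it in both groups, centred on the median over genes. Of 671 genes that passed, 635 (94.6%) had the same sign as this measure. The flag of other lists (other) was deposited by the authors as 1 or 0.

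No values per library were used, so the authors' calls and adjusted p replaced the per-library tests first planned. No value column was left out of use for want of a sample (0). Event symbols matched genes directly for 1870 members, through older symbols for 235, and not for 36. Exons were matched to GENCODE M21 (GRCm38) by length and by spacing to at least 2 other exons or introns of the gene, without converting coordinates, with python 3.11.15, pandas 2.3.3, numpy 2.4.6 and matplotlib 3.10.9. Selection, matching, the decay rule and the tetramer count were tested on simulated data.

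The members, lists, markers and named genes were chosen with earlier results of these data known. Named are the 10 largest rises and falls among called members, called members whose host passed, up to 4 members a list by minimum change, all members in the SR, hnRNP and muscle splicing lists, the exons at the bounds, and decay factors that passed, apart from a few that are not reported here. The tetramer, the neighbouring exons, the exclusive pairs and the zinc finger symbols were chosen after values were seen. Of the other markers, the authors' deposited table gave fibroblast genes a median log2 fold change of 0.05 (0 of 8 higher, 1 lower), endothelial 0.04 (1 and 0 of 7), mural -0.09 (1 and 0 of 7), epicardial 0.64 (0 of 5 either way, all 5 positive) and erythroid -0.33 (0 and 1 of 5, none positive).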

Additional observations from a re-analysis of the deposited data

How the results depend on the processing

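Of 29 alternatives, 11 moved a count by over 1.5 times. The 29 include alternatives for medians of log2 fold change, to which that ratio was not applied and none of which is among the 11. The cause was not tested beyond the construction of each alternative. At a minimum change of 5 points or more, 118 members were called higher and 147 lower, and with at least 20 points 7 and 16. With both groups held between 10% and 90%, 14 were called higher and 27 lower, since exons that enter through the difference drop out. With a mean of 20% to 80%, 36 were called lower. Of the hosts, 29 were higher and 19 lower at an adjusted p under 0.01, and 32 and 17 were also in the authors' sleuth list. At 5 points or more the median log2 fold change of hosts went from 0.09 to 0.04 where inclusion fell and from 0.02 to 0.00019 where it rose, and no error of these medians is known. No paired analysis was possible because the tables hold 1 value per group, and no fit leaving out a library could be made for the same reason. Depth per library is unknown, so an exon that was not called may be one with few reads.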
